A study of Mus musculus with 29 samples.

Results

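Hba-a1, Hba-a2, Hbb-bs and Hbb-bt are the adult globin genes of the mouse, and they make up 4 of the 50384 gene symbols measured here in whole blood. The 4 genes were chosen by name, and all 4 were present in the table and passed the filter on low values. Hba-a1 and Hba-a2 encode the alpha chain of hemoglobin, and Hbb-bs and Hbb-bt encode the beta chain. Globin transcripts had been removed from the RNA before sequencing, so every level given below is what was left after depletion, and not the level in blood. How much each transcript was reduced was not measured.

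The libraries came from 29 male mice whose genotype the labels give as LJ, 1 library per animal, all at day 120. Sham mice had a mock procedure (n = 10). The irradiated mice received 11.35 Gy to the upper body and were labelled by outcome as Live (n = 10) or Die (n = 9). All sham mice carry the label Live, and no transgene, drug or other treatment is named for any group. The series was made to look at the blood response to radiation and at markers of survival after delayed lung injury.

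Hemoglobin is a tetramer of alpha and beta chains, each holding a heme, and fills the red cell. Mature mammalian red cells have no nucleus, so globin RNA in blood is carried mainly by reticulocytes, the young red cells that still hold RNA from the marrow. The alpha genes lie in a cluster on chromosome 11 and the beta genes in a cluster on chromosome 7, and both clusters also hold embryonic genes that are off in the adult. In mice the adult beta pair differs by haplotype. Hbb-bs and Hbb-bt are the pair of the single haplotype, which the reference strain carries, and Hbb-b1 and Hbb-b2 belong to the diffuse haplotype and were not analysed here. The labels do not say which haplotype these mice carry. If it is not the single one, reads of other beta genes may be counted under Hbb-bs and Hbb-bt, so the beta levels and the ratio of the beta copies hold for these rows of the table and not for a known pair of genes.

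Each pair of copies is nearly identical, and the sequences are shown because they set how far the members can be measured apart. In the longest coding transcripts of GENCODE M21 on GRCm38, the coding regions of Hba-a1 and Hba-a2 were 426 bases long and differed at a single base, C381T, counted from 1 at the first base of the start codon with the Hba-a1 base first. The 60 coding bases around it, on the coding strand with the differing base in capitals, are these.

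Hba-a1: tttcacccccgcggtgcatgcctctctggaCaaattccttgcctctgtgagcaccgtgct
Hba-a2: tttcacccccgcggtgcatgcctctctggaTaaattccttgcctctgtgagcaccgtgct

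The coding regions of Hbb-bs and Hbb-bt were 441 bases long and differed at C417T, with the Hbb-bs base first. The last 60 coding bases, again with the differing base in capitals, are these.

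Hbb-bs: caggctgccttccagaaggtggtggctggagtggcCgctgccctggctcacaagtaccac
Hbb-bt: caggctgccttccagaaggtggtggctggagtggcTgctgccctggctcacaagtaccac

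Of all 31-base windows, 71.3% in the Hba-a1 transcript and 91.03% in the Hba-a2 transcript also occurred in the other alpha copy. In the beta pair these shares were 66.89% for Hbb-bs and 59.44% for Hbb-bt. No 31-base window was shared between Hba-a1 or Hba-a2 and Hbb-bs. Reads from the shared stretches were therefore divided between the copies by estimation, and the split within a pair is less certain than the sum of the pair. The transcripts differ mainly outside the coding region, with 196 bases before the start codon in Hba-a1 and 35 in Hba-a2, and with 53 in Hbb-bs and 127 in Hbb-bt.

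Hba-a1 lies at chr11:32283511-32284465 and Hba-a2 at chr11:32296489-32297298, both on the plus strand. Hbb-bs lies at chr7:103826534-103828096 and Hbb-bt at chr7:103812524-103813996, both on the minus strand. The promoters are shown as a description of the members. Their part in the common variation between animals given below was not tested. In the 150 bases upstream of the RefSeq start (GRCm38.p6), all 4 genes held the TATA box core TATAA, the CCAAT box and the CACCC box, the last of which erythroid Klf1 is known to bind in beta promoters. None held the GATA motif GATAA. Each motif was searched on both strands. Among 32851 mouse promoter windows of the same length, 14.15% held TATAA, 24.5% CCAAT, 37.43% CACCC and 13.35% GATAA, and 1.096% held the first 3 together. The RefSeq promoter windows of Hba-a1 and Hba-a2, which run on past the start, were identical over 297 bases at an offset of 3, while the 150-base windows of Hbb-bs and Hbb-bt matched at 106 of 149 bases at an offset of 1. One alpha and one beta promoter follow, as far as no annotated exon covers them, 5′ to 3′ on the strand of the gene, with these motifs in capitals. They are Hba-a2 at chr11:32296342-32296488 on the plus strand and Hbb-bs at chr7:103827929-103828011 on the minus strand.

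Hba-a2: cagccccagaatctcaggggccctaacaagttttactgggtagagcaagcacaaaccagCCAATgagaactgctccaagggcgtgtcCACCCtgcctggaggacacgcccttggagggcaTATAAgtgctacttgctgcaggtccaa
Hbb-bs: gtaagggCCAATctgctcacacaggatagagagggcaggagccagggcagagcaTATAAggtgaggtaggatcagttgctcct

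The CACCC of Hbb-bs lies just upstream of the stretch shown. A match to such short letters is a description of the window and not a bound site.

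The deposited values are read here as estimated counts scaled per library, and are called normalised counts. The approximate number of reads lay between 19.3 and 41.0 M per library. In sham replicate 1, Die replicate 2 and Die replicate 14, 828, 754 and 506 of 11519 expressed genes (mean of at least 50) were listed at 0, against at most 220 in each of the other libraries. Results that rest on these 3 libraries are given with and without them. The share of a library taken by 7S RNA, the RNA of the signal recognition particle, ranged from 2.73 to 26.3% in sham, from 11.6 to 40.1% in Live and from 3.02 to 32.1% in Die. Against the label of whole blood, all 6 red cell markers in the table, Alas2, Slc4a1 and Klf1 among them, were above 0 in every library. The platelet, neutrophil, B cell and T cell markers were also all above 0 in every library, and 5 of the 6 monocyte markers were. Blood is a bulk sample here, so fewer cells of a type and less RNA per cell cannot be told apart.

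After depletion the adult globins still stood among the most abundant RNAs. By mean normalised count, Hba-a2 ranked 5 of 50384, Hba-a1 7, Hbb-bs 9 and Hbb-bt 58. Together they took 4.42% ± 1.72 of the library total in sham (SD, n = 10). The mean share was 4.83% ± 1.47 in Live (SD, n = 10), and in Die it was 4.15% ± 1.29 (SD, n = 9). The lowest shares were 1.90% in sham, 2.74% in Live and 1.90% in Die, and the highest 6.96%, 7.43% and 6.02%. The 3 groups overlapped over most of this range. Both the lowest sham share and the lowest Die share came from sparse libraries, sham replicate 1 and Die replicate 14.

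Hba-a1, the first alpha gene of the pair, had 365282 ± 244487 normalised counts in sham (SD, n = 10), with 87198 as the lowest, 320734 as the median and 941650 as the highest value. In Live the mean was 520885 ± 286244 (SD, n = 10), and the lowest, median and highest libraries had 201736, 421458 and 1160610. In Die the mean was 328539 ± 153818 (SD, n = 9), and the values ran from 99600 over a median of 271956 to 532283. The Die values all lay below the 2 highest Live values, those of Live replicates 18 and 19, and the groups otherwise overlapped. The lowest values of all came from sham replicate 1 and Die replicate 14.

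Hba-a2, the alpha copy with the higher counts in most libraries, had 431614 ± 280256 normalised counts in sham (SD, n = 10), with 83500 as the lowest, 384126 as the median and 1079962 as the highest value. In Live the mean was 603468 ± 350992 (SD, n = 10), and the lowest, median and highest libraries had 227956, 467901 and 1379547. In Die the mean was 347066 ± 166664 (SD, n = 9), and the values ran from 90567 over a median of 320660 to 603442. The order of the group medians was the same as for Hba-a1, and the ranges again overlapped.

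Hbb-bs, the beta copy with the higher level, had 314878 ± 145268 normalised counts in sham (SD, n = 10), with 136013 as the lowest, 279158 as the median and 649013 as the highest value. In Live the mean was 447295 ± 220222 (SD, n = 10), and the lowest, median and highest libraries had 153751, 383863 and 848008. In Die the mean was 355374 ± 145141 (SD, n = 9), and the values ran from 180610 over a median of 298798 to 581086. Unlike the alpha genes, Hbb-bs had a Die median above the sham median, but the difference of medians was far smaller than the spread between animals of either group.

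Hbb-bt, the other adult beta gene, stood an order of magnitude lower and had 32878 ± 15222 normalised counts in sham (SD, n = 10), with 13783 as the lowest, 28724 as the median and 64725 as the highest value. In Live the mean was 47154 ± 24730 (SD, n = 10), and the lowest, median and highest libraries had 15476, 40559 and 89830. In Die the mean was 34412 ± 14817 (SD, n = 9), and the values ran from 17871 over a median of 28617 to 55190. All 4 genes had their highest value in Live replicate 18, the library with the highest total, and their highest sham value in sham replicate 10.

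**Figure D1:**
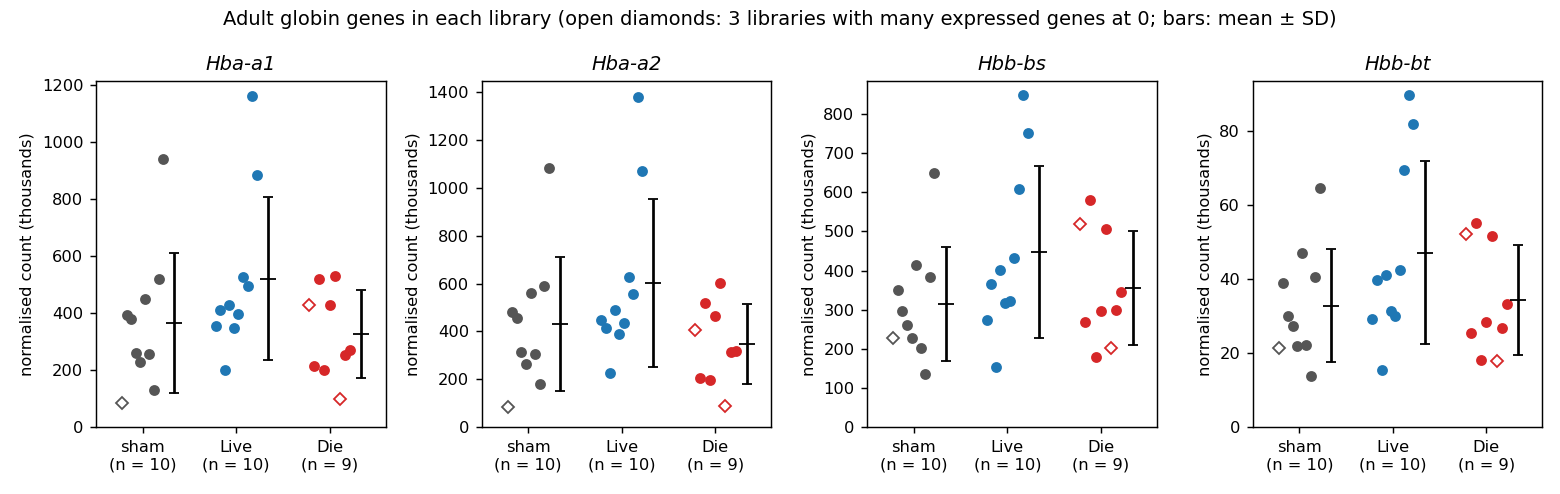
Normalised counts (y axis, in units of 1000, linear, from 0) of each adult globin gene in sham, Live and Die mice, 1 point per library, with bars for mean ± SD and open diamonds for the 3 sparse libraries. Every group spans a several-fold range and the 3 groups overlap for each gene, with the highest point of each panel in Live.

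Per base of transcript the order of the members was Hba-a2, then Hbb-bs and Hba-a1 close together, and Hbb-bt last. On the scale of normalised counts per kilobase of the longest coding transcript, the means over 29 libraries were 838692 ± 524700 for Hba-a2, 594120 ± 283368 for Hbb-bs, 583026 ± 349087 for Hba-a1 and 54448 ± 27625 for Hbb-bt (SD). On that scale Hba-a2 was above Hba-a1 in 29 of 29 libraries, with a median ratio of 1.44 (range 1.15 to 1.77). The Hba-a1 transcript used, of 699 bases, begins upstream of the RefSeq start and takes in the 150-base promoter window of that gene. A shorter Hba-a1 length would lower this ratio and raise Hba-a1 in the order. In normalised counts, without division by length, Hba-a2 was below Hba-a1 in 7 of 29 libraries. Hbb-bs was above Hbb-bt in 29 of 29, with a median ratio of 11.05 (range 9.80 to 12.7). Hba-a2 was above Hbb-bs in 25 of 29 libraries. Hba-a1 was above Hbb-bs in 14 of 29, so these neighbours in the order did not differ beyond their spread. These ratios rest on the chosen transcript lengths, on the division of shared reads and on a depletion whose efficiency for each transcript is not known.

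Alas2, which encodes the erythroid enzyme that starts heme synthesis and is not a globin gene, ranked 4 by mean normalised count. Per kilobase its mean was 384681 ± 191277 (SD, n = 29), and its lowest value, 168736, was higher than the highest of Hbb-bt, 127781. It stood below the other 3 globins in most libraries, being above Hba-a2 in 3 of 29 libraries, above Hba-a1 in 4 and above Hbb-bs in 3.

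In the limma model, no adult globin gene passed the threshold in any comparison. An adjusted p under 0.05 over the 24310 genes tested was required, and changes are on the log2(value + 0.5) scale. For irradiated mice (the equally weighted mean of Live and Die) minus sham, 0 of 4 members were called, against a background of 0.0165% of all genes (4 of 24310). Hba-a1 differed by 0.30 (SE 0.31, adjusted p = 0.887), Hba-a2 by 0.19 (SE 0.32, adjusted p = 0.927), Hbb-bs by 0.33 (SE 0.25, adjusted p = 0.832) and Hbb-bt by 0.28 (SE 0.25, adjusted p = 0.869). All 4 estimates were above 0, those of the alpha genes smaller than their errors and those of the beta genes slightly larger, and no member reached an unadjusted p under 0.05. Rescaled to equal totals they came to 0.11, -0.0018, 0.14 and 0.09 in the same order, with the median of all genes at -0.14, and without the 3 sparse libraries to 0.17, 0.05, 0.30 and 0.23. The median of the members was 0.29 beside 0.02 for all genes tested.

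For Live minus sham, 0 of 4 members were called, against a background of 0.0411% of genes (10 of 24310). The estimates were 0.63 for Hba-a1 (SE 0.35, adjusted p = 0.731), 0.59 for Hba-a2 (SE 0.37, adjusted p = 0.793), 0.47 for Hbb-bs (SE 0.29, adjusted p = 0.780) and 0.47 for Hbb-bt (SE 0.29, adjusted p = 0.776). These are the largest positive estimates of the 4 comparisons, and the 95% confidence interval of Hba-a1 ran from a fold of 0.943 to one of 2.55. When libraries were rescaled to equal totals the 4 estimates came to 0.27, 0.23, 0.11 and 0.11, in the same order, while the median of all genes moved to -0.28. Without the 3 sparse libraries they came to 0.44, 0.36, 0.43 and 0.42. Live libraries had higher totals, with a median of 30.1 M normalised counts against 23.1 M in sham.

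For Die minus sham, no member and no other gene was called, so the background was 0%, while 2108 genes had an unadjusted p under 0.05 in limma. The estimates were -0.04 for Hba-a1 (SE 0.36, adjusted p = 0.987), -0.22 for Hba-a2 (SE 0.38, adjusted p = 0.888), 0.19 for Hbb-bs (SE 0.30, adjusted p = 0.873) and 0.08 for Hbb-bt (SE 0.29, adjusted p = 0.958). The alpha estimates were below 0 and the beta estimates above it, all 4 within their standard errors. Hba-a1, Hba-a2 and Hbb-bt changed sign with at least 1 covariate or weighting, at values the closing section gives. Without the 3 sparse libraries the estimates were -0.09, -0.26, 0.16 and 0.04. Live minus sham and Die minus sham share the sham libraries.

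Die minus Live gave the lowest estimates. No member and no other gene was called in limma, a background of 0%, and 2514 genes had an unadjusted p under 0.05. Hba-a2 differed by -0.81 (SE 0.38, unadjusted p = 0.0408, adjusted p = 0.462), the sole member with an unadjusted p under 0.05, and its 95% confidence interval ran from a fold of 0.335 to one of 0.975. Hba-a1 differed by -0.67 (SE 0.36, adjusted p = 0.524), Hbb-bt by -0.39 (SE 0.29, adjusted p = 0.658) and Hbb-bs by -0.28 (SE 0.30, adjusted p = 0.755). The 7S share moved with this comparison, at a median of 27.6% in Live and 8.72% in Die, so the parts of 7S share and outcome were not told apart. With the log2 7S share as a covariate, the median of all genes moved to 0.14. Under that covariate the estimates came to -0.04 for Hba-a1, -0.02 for Hba-a2, -0.02 for Hbb-bs and -0.11 for Hbb-bt. Rescaled to equal totals they came to -0.33, -0.47, 0.06 and -0.05 in the same order, with the median of all genes at 0.29. Without Live replicates 18 and 19 they came to -0.39, -0.51, -0.03 and -0.13, and without the 3 sparse libraries to -0.53, -0.62, -0.27 and -0.38.

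**Figure D2:**
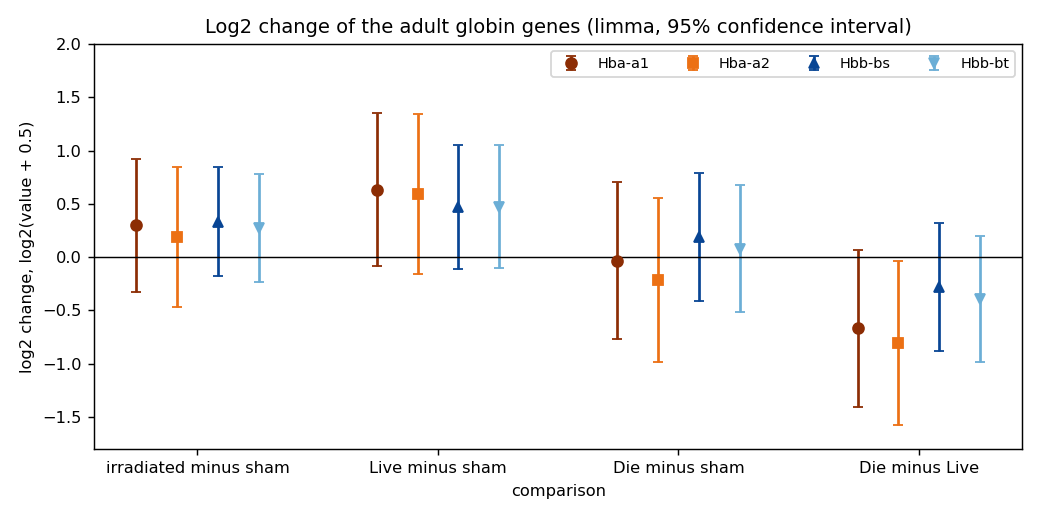
Log2 change (y axis, on the log2(value + 0.5) scale) of the 4 adult globin genes in the 4 comparisons, with the limma estimate as a point and its 95% confidence interval as a bar. All intervals include 0 except that of Hba-a2 in Die minus Live, which ends at -0.04, and no adjusted p is under 0.05.

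The balance of the 4 transcripts does not depend on how a library was scaled, and was compared as log2 ratios within a library. 4 ratios in 4 comparisons were tested by permutation over animals, two-sided, and adjusted over all 16. None passed an adjusted p of 0.05. The 6 with the lowest p all had Die as 1 side of the comparison, and their adjusted p lay between 0.0702 and 0.0872.

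The ratio of the beta copies, Hbb-bt to Hbb-bs, was the most even of the 4, with a coefficient of variation of 6.72% over 29 libraries. Its values ran from 0.0938 to 0.114 in sham (median 0.103), from 0.0934 to 0.114 in Live (median 0.104) and from 0.0885 to 0.102 in Die (median 0.0961). The ranges overlapped, but 9 of 9 Die libraries lay below both the sham and the Live median. Die minus sham was -0.11 on the log2 scale (exact permutation p = 0.0105, adjusted p = 0.0702). Die minus Live was also -0.11 (exact permutation p = 0.00765, adjusted p = 0.0702), while Live minus sham was 0.00 (adjusted p = 0.971). Without the 3 sparse libraries the Die differences from sham and Live were -0.12 and -0.11, each with an adjusted p of 0.0834 in the exact permutation test.

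The ratio of the alpha copies, Hba-a2 to Hba-a1, ran from 0.958 to 1.40 in sham (median 1.19), from 0.999 to 1.26 in Live (median 1.13) and from 0.909 to 1.24 in Die (median 0.998). Die minus sham was -0.18 on the log2 scale (exact permutation p = 0.0176, adjusted p = 0.0702), with 8 of 9 Die libraries below the sham median. Without the 3 sparse libraries this difference came to -0.16 (exact permutation p = 0.0135, adjusted p = 0.0834). Die minus Live was -0.14 (exact permutation p = 0.0327, adjusted p = 0.0872), with 7 of 9 below the Live median, and came to -0.09 (adjusted p = 0.199 in the exact permutation test) without the 3 sparse libraries. The groups overlapped in every case.

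The ratio of alpha to beta, taken as Hba-a1 to Hbb-bs in normalised counts, ran from 0.381 to 1.45 in sham (median 1.11), from 0.814 to 1.37 in Live (median 1.20) and from 0.493 to 1.45 in Die (median 0.848). Die minus Live was -0.39 on the log2 scale, with 8 of 9 Die libraries below the Live median (exact permutation p = 0.0164, adjusted p = 0.0702). Without the 3 sparse libraries the difference was -0.25 (adjusted p = 0.175 in the exact permutation test). The lowest values in sham and in Die came from sham replicate 1 and Die replicate 14, both sparse. Live minus sham was 0.16 with all libraries and 0.00 without those 3.

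The ratio of Hbb-bs to Alas2, a depleted transcript against another erythroid one, ran from 0.196 to 0.664 in sham (median 0.407), from 0.254 to 1.16 in Live (median 0.521) and from 0.407 to 0.766 in Die (median 0.537). No Die library lay below the sham median. Die minus sham was 0.42 on the log2 scale (exact permutation p = 0.0314, adjusted p = 0.0872), and irradiated minus sham was 0.34 (permutation test, adjusted p = 0.169). Without the 3 sparse libraries Die minus sham came to 0.44 (exact permutation p = 0.0579, adjusted p = 0.175). Hbb-bs and Alas2 themselves differed between Die and sham by 0.19 and -0.22 in the limma model, neither past the threshold.

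**Figure D3:**
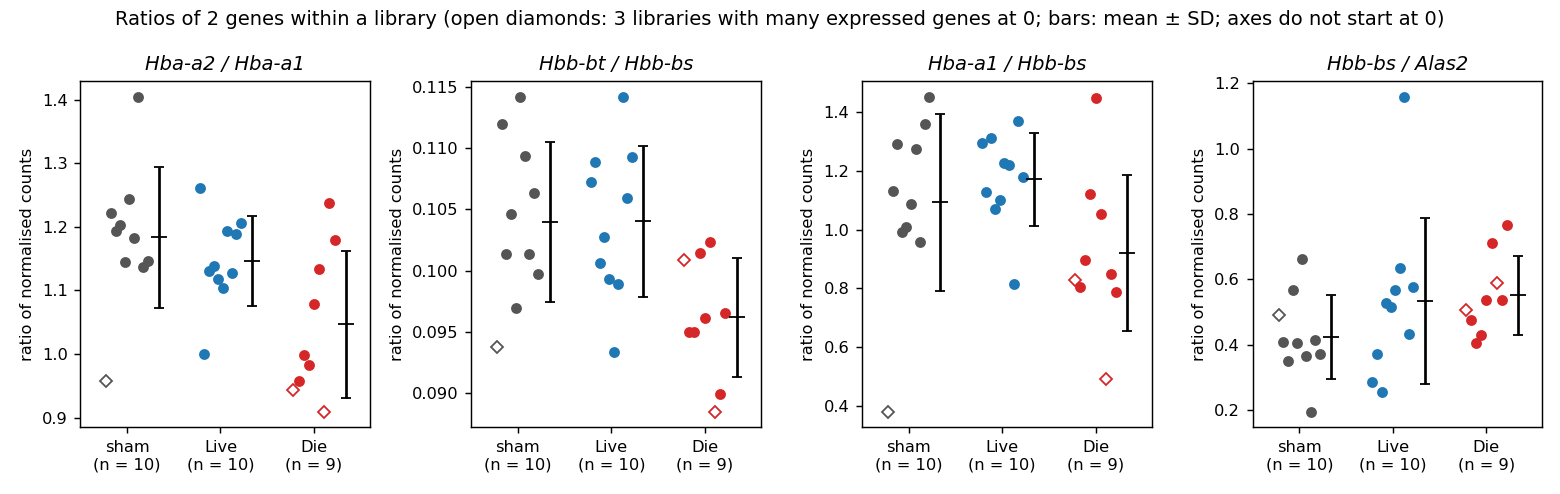
Ratios of normalised counts within a library (y axes, linear, not starting at 0) for Hba-a2 to Hba-a1, Hbb-bt to Hbb-bs, Hba-a1 to Hbb-bs and Hbb-bs to Alas2 in sham, Live and Die mice, 1 point per library, with mean ± SD and open diamonds for the 3 sparse libraries. The Die libraries sit low in the Hbb-bt to Hbb-bs panel, between 0.0885 and 0.102, and the ranges overlap in all 4 panels.

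The alpha ratio correlated with properties of the library. The 7 libraries with the lowest 7S share, 2.73 to 11.6%, had Hba-a2 to Hba-a1 ratios between 0.909 and 0.999. The other 22, with 7S shares of 14.7 to 40.1%, had ratios between 1.08 and 1.40. The cut at 7 libraries was taken from the number with a ratio below 1, so this split is a description and not a test. Of those 7 libraries 1 was sham, 1 was Live and 5 were Die. Over 29 libraries the log2 ratio correlated with the 7S share (Pearson's r = 0.70, permutation p = 5e-05, adjusted p = 0.0001; Spearman's rho = 0.66, permutation p = 0.00015, adjusted p = 0.0006). Without the 2 libraries farthest from the median 7S share r was 0.73, and without the 3 sparse libraries it was 0.55. Within groups r was 0.66 in sham, 0.70 in Live and 0.95 in Die (exact permutation p = 0.000287 and adjusted p = 0.00115 in Die, neither sham nor Live past an adjusted p of 0.05), and in sham it was 0.05 without the 2 farthest libraries, sham replicate 1 among them.

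With the number of expressed genes at 0 the alpha ratio had r = -0.67 (permutation p = 4e-05, adjusted p = 0.0001) and rho = -0.57 (permutation p = 0.00142, adjusted p = 0.00284). Without the 2 farthest libraries r was -0.65, and without the 3 sparse ones it was -0.53. Within sham, Live and Die r was -0.81, -0.73 and -0.66, and without the 2 farthest libraries of each group it was -0.39, -0.13 and -0.63, so the relations within sham and Live rest on those libraries. In Live rho was -0.28 (permutation p = 0.427). The part of these library properties in the difference of the alpha ratio between Die and the other groups was not tested. The Hba-a1 to Hbb-bs ratio had r = 0.53 with the 7S share (permutation p = 0.00264, adjusted p = 0.00264; rho = 0.41, permutation p = 0.0272, adjusted p = 0.0362), and r = 0.51 without the 2 farthest libraries. That relation rested on the sparse libraries, since r was 0.22 without those 3, and it was 0.73, 0.39 and 0.32 within sham, Live and Die. With the genes at 0 its r was -0.69 (permutation p = 0.00152, adjusted p = 0.00203) but its rho was -0.09 (permutation p = 0.647), and r was -0.53 without the 2 farthest libraries and 0.04 without the 3 sparse ones. These 4 relations were chosen after the data were seen and were adjusted among themselves.

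**Figure D4:**
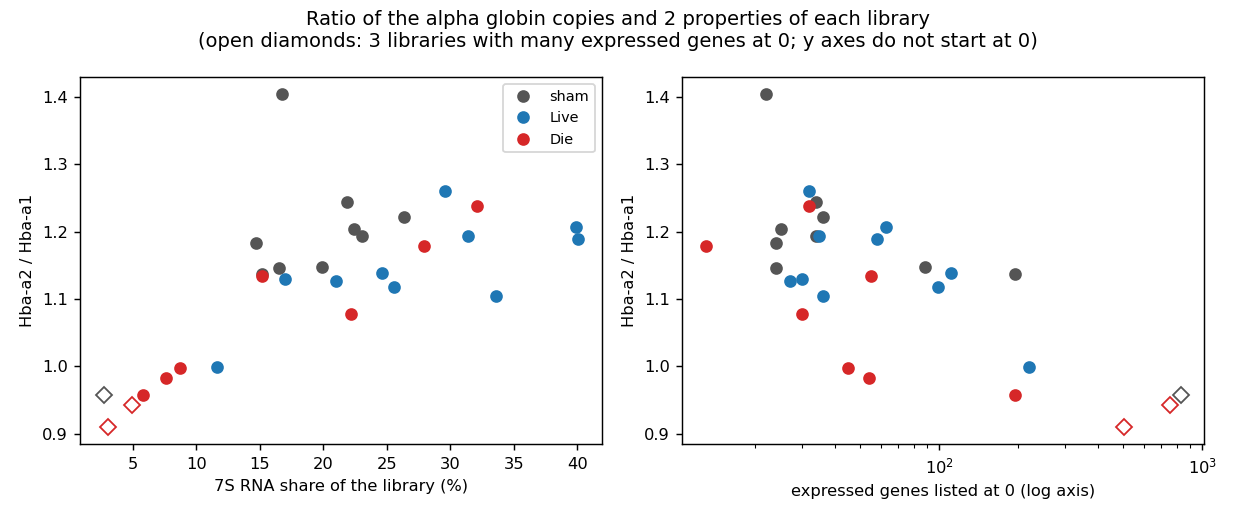
Ratio of Hba-a2 to Hba-a1 (y axes, linear, not starting at 0) against the 7S RNA share of the library in percent (left) and the number of expressed genes listed at 0 (right, log axis), 1 point per library, coloured by group, with open diamonds for the 3 sparse libraries. All 7 libraries with a ratio below 1 have 7S shares of at most 11.6%.

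The 4 members varied together between animals. Over 29 libraries the log2 values of Hba-a1 and Hba-a2 had r = 0.99, and those of Hbb-bs and Hbb-bt had r = 0.99. Across the alpha and beta pairs r lay between 0.83 for Hba-a2 with Hbb-bs and 0.89 for Hba-a1 with Hbb-bt. Copies within a pair share reads, and all values share the scaling of their library, so these are descriptions.

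Globin levels correlated with Alas2, while their correlations with Slc4a1 did not pass the threshold. Hba-a1 correlated with Alas2 over 29 libraries (r = 0.77, permutation p = 2e-05, adjusted p = 0.0002; rho = 0.67, permutation p = 0.00018, adjusted p = 0.0014). Without the 2 libraries farthest from the median of Alas2 its r was 0.67, without the 3 sparse libraries it was 0.75, and within sham, Live and Die it was 0.77, 0.75 and 0.80. In Live r was 0.05 without the 2 farthest libraries, so the relation there rests on those 2. Hbb-bs had r = 0.69 with Alas2 (permutation p = 6e-05, adjusted p = 0.0003; rho = 0.64, permutation p = 0.00028, adjusted p = 0.0014), 0.57 without the 2 farthest libraries, 0.65 without the 3 sparse ones, and 0.70, 0.58 and 0.88 within sham, Live and Die. In Live this fell to -0.10 without the 2 farthest. With Slc4a1, the anion exchanger of the red cell membrane, r was 0.16 for Hba-a1 (permutation p = 0.406, adjusted p = 0.451; rho = 0.16) and 0.29 for Hbb-bs (permutation p = 0.127, adjusted p = 0.158; rho = 0.21). Whether the relations to Alas2 and to Slc4a1 differ was not tested.

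**Figure D5:**
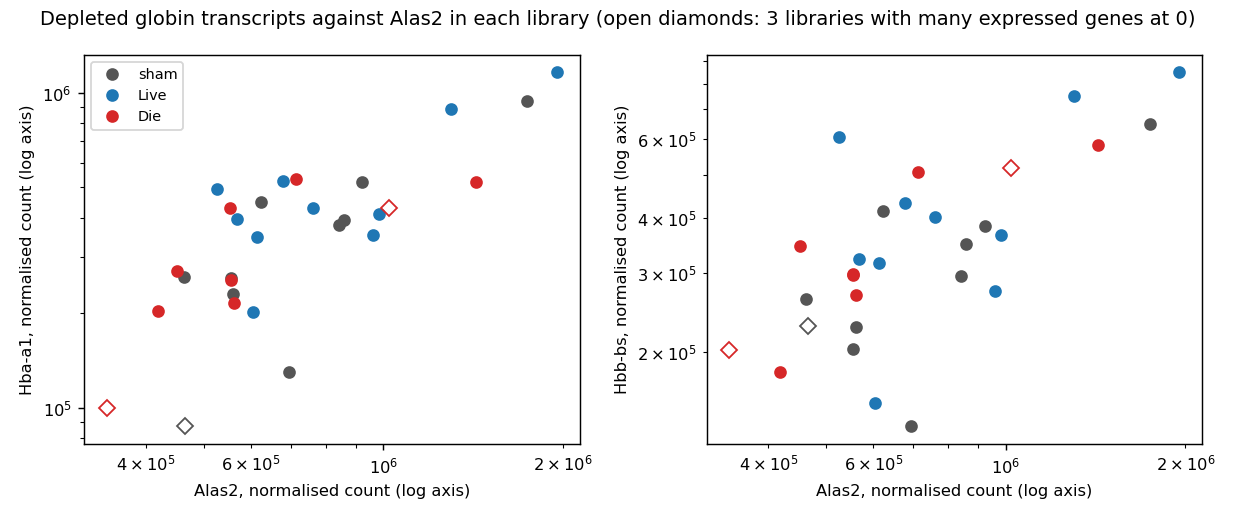
Normalised counts of Hba-a1 (left) and Hbb-bs (right) against Alas2, both axes log, 1 point per library, coloured by group, with open diamonds for the 3 sparse libraries. Both globins are higher where Alas2 is higher (r = 0.77 and r = 0.69 on log2 values), and in Live the slope is carried by the 2 libraries at the top right.

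Among the library properties listed, the 7S share had r = 0.57 with Hba-a1 (permutation p = 0.00125, adjusted p = 0.00417; rho = 0.38, adjusted p = 0.102), 0.42 without the 2 farthest libraries and 0.64, 0.71 and 0.22 within sham, Live and Die. With Hbb-bs its r was 0.40 (permutation p = 0.0317, adjusted p = 0.0527; rho = 0.34) and 0.17 without the 2 farthest. The approximate number of reads had r = 0.45 with Hba-a1 (permutation p = 0.0145, adjusted p = 0.0289; rho = 0.36) and 0.50 with Hbb-bs (permutation p = 0.00529, adjusted p = 0.0132; rho = 0.43). Both rested on the 2 farthest libraries, without which r was 0.20 and 0.26. Within sham, Live and Die the reads had r = 0.14, 0.76 and 0.19 with Hba-a1 and -0.01, 0.75 and 0.28 with Hbb-bs. The number of expressed genes at 0 had r = -0.38 with Hba-a1 and -0.05 with Hbb-bs, neither past an adjusted p of 0.05 over the 10 pairs (permutation tests, adjusted p = 0.0607 and 0.817).

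The other globin genes were far lower, and none was called in any comparison. Hbq1a and Hbq1b, theta globin genes that lie beside the adult alpha genes and whose role is not settled, were the highest of them. Hbq1a had 822 ± 359 normalised counts in sham (SD), 1063 ± 400.0 in Live and 583 ± 247 in Die. Its lowest, median and highest values were 450.4, 750.5 and 1564 in sham, 627, 929 and 1862 in Live, and 214, 563 and 967 in Die. The Live values sat high and the Die values low, with overlap. Hbq1b had means of 957 ± 476 in sham (SD), 1368 ± 1055 in Live and 701 ± 436 in Die. Die minus Live was -0.93 for Hbq1a (SE 0.27, unadjusted p = 0.00147, limma adjusted p = 0.348) and -1.10 for Hbq1b (SE 0.43, limma adjusted p = 0.403), lower estimates than those of the adult alpha genes. The embryonic beta-like gene Hbb-y had means of 26.0 in sham, 39.3 in Live and 32.8 in Die. Hba-x and Hbb-bh1, the other embryonic genes with any value, had group means under 5, and Hbb-bh2 was listed at 0 in all libraries. Of 9 other globin genes with a value row, 8 were tested, with 3 of 8 above 0 for Die minus Live and a median of -0.38, beside -0.53 for the adult globins and 0.00 for all genes. Among the 8 were Mb and Ngb, which like Hba-x and Hbb-bh1 had group means under 5 and many libraries at 0. The median of the 8 therefore rests partly on values near 0.

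The wider red cell programme was described by lists of genes, and no member of any red cell list was called in any comparison. For irradiated minus sham, where 0.0165% of all genes were called, 6 of 13 heme synthesis genes, 8 of 14 red cell membrane genes, 9 of 12 globin regulators, 6 of 9 genes of hemoglobin assembly and red cell enzymes and 7 of 10 reticulocyte maturation genes had estimates above 0. The list medians were -0.01, 0.08, 0.15, 0.17 and 0.07 in the same order, beside 0.02 for all genes and 0.29 for the adult globins. The difference between the lists was not tested.

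In heme synthesis, Tfrc, the transferrin receptor that brings iron into the cell, had an estimate of 0.60 (SE 0.22, limma adjusted p = 0.461), the smallest p of the list. The mitochondrial transporter Abcb10 had 0.37, and Alas1, the housekeeping form of the first enzyme, had -0.38. Alas2 had -0.01 (limma adjusted p = 0.998). In the membrane list Dmtn, which bundles actin in the red cell skeleton, had 0.59 (limma adjusted p = 0.442), Rhag, of the Rh complex, 0.56 (limma adjusted p = 0.539), and Ermap 0.48. None of these passed the threshold.

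Among the regulators, Tal1 and Ldb1, parts of an erythroid transcription complex, had estimates of 0.34 and 0.32. Sox6, a repressor of embryonic globin genes, had 0.41 and Hbs1l 0.34, with limma adjusted p of at least 0.759 for the whole list. Eif2ak1, the heme-regulated kinase that slows globin translation when heme is short, had 0.28, the carbonic anhydrase Car1 0.44, the peroxiredoxin Prdx2 0.26 and catalase Cat -0.38. In reticulocyte maturation Xpo7, a nuclear exporter, had 0.47, Fbxo7 0.20, Trim10 -0.22 and Ube2o, an enzyme that marks unused proteins for removal in maturing red cells, -0.56. In the clearance of hemoglobin and heme, Hp, the haptoglobin that binds free hemoglobin, had -0.66 (limma adjusted p = 0.474), Hmox1, which breaks heme down, -0.79 (limma adjusted p = 0.541), Fth1, the ferritin heavy chain, 0.26 and the biliverdin reductase Blvra -0.58. No gene of these lists passed the threshold.

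For Die minus Live, where no gene was called, the list medians lay below 0 for heme synthesis (-0.25, 2 of 13 above 0), the red cell membrane (-0.26, 5 of 14), the globin regulators (-0.34, 3 of 12), hemoglobin assembly and red cell enzymes (-0.24, 3 of 9) and reticulocyte maturation (-0.20, 2 of 10), beside -0.53 for the adult globins. Platelet markers had the lowest median of the lists, -0.60, with 0 of 6 above 0. Pf4, a platelet chemokine, had -0.82 (SE 0.24, limma adjusted p = 0.348). The shift of all genes under equal totals given for this comparison bears on these medians too.

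The other blood cell lists give the setting in which the globins were measured. Monocyte markers were the sole listed genes past the threshold. For irradiated minus sham Cx3cr1, a chemokine receptor of monocytes, was lower (log2 change -1.36, SE 0.20, limma adjusted p = 0.00257), and Ccr2 (-1.06), F13a1 (-0.66) and Csf1r (-1.15) were not past it. For Live minus sham 3 of 6 were lower, Cx3cr1 (-1.53, limma adjusted p = 0.00175), Ccr2 (-1.40, limma adjusted p = 0.00592) and F13a1 (-0.75, limma adjusted p = 0.0401). The summed monocyte markers ranged from 34267 to 62585 normalised counts in sham, from 16332 to 36319 in Live and from 20451 to 40942 in Die. The summed red cell markers ranged from 501889 to 1902105 in sham, from 563345 to 2131607 in Live and from 387463 to 1764609 in Die. With the mean levels of platelet, neutrophil, monocyte, B cell and T cell markers as covariates, the irradiated minus sham estimates came to 0.88 for Hba-a1, 0.78 for Hba-a2, 0.65 for Hbb-bs and 0.69 for Hbb-bt, still with no adjusted p under 0.05 (lowest 0.451). The monocyte markers themselves had a list median of -0.96 in this comparison, with 0 of 6 above 0. That covariate therefore overlaps with the group, and their parts in these estimates were not told apart.

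Of 11515 other genes with a mean of at least 50, the 8 whose log2 values were most like the mean of the 4 globins over 29 libraries were Cox6a1 (r = 0.86), Txnrd2 (0.84), Abhd4 (0.84), Marchf2 (0.84), Rplp0 (0.84), Atp5mpl (0.84), Rpl28-ps1 (0.84) and Smox (0.83). Cox6a1 and Atp5mpl encode subunits of cytochrome oxidase and of ATP synthase. Rplp0 encodes a ribosomal protein, Txnrd2 a mitochondrial thioredoxin reductase, Marchf2 a ubiquitin ligase and Smox spermine oxidase. Rpl28-ps1 is annotated as a processed pseudogene, so its reads may be shared with its parent gene. These r values are the highest of 11515 and were taken with a mean of 4 genes. They are therefore not of a kind with the r between single alpha and beta genes. With values taken as deviations from the group means 4 of these 8 stayed among the first 8, and without the 3 sparse libraries 2 did. Some genes of the globin and red cell lists followed closely. Abcb10 ranked 14 (r = 0.82), Prdx2 21 (0.82), Hbq1a 38 (0.80), Hbq1b 40 (0.79) and Alas2 75 (0.76). Others did not, with Slc4a1 at rank 3443 (0.21) and Alas1 at 6363 (-0.01). In all, 706 of the 11515 genes had r of at least 0.5, and the median r was 0.03. The 706 were shorter, with a median longest coding transcript of 2296.5 bases against 3246 for all genes compared, and 15.1% of them were under 1000 bases against 4.72%. They held 41 of the 76 ribosomal protein symbols compared. The globin transcripts are themselves short, at 554 to 703 bases, and the part of transcript length in the likeness was not tested.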

How the data were processed

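Values were measured by stranded total RNA sequencing of whole blood, drawn by cheek bleed or from the tail vein and kept in PAXgene solution, with globin and ribosomal RNA depleted, per the labels' protocols. The deposited table holds a normalised signal for every gene symbol. Its values are read as estimated counts scaled per library by the authors, since each library's median ratio to the geometric mean over libraries was 1.02. Tools in the submitters' processing notes are kallisto 0.44.0, bcl2fastq 2.19, DESeq2 and sleuth, with the build GRCm38. In what order they were used, and with which annotation, is not given in the sources used. A unit value per library, estimated from the low values, stands for 1 read. Divided by it, 6.59% to 18.0% of the values were whole within 0.01, so reads could not be recovered and no counting error is given. Approximate reads are the library total divided by the unit value.

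limma 3.58.1 in R 4.3.3, with a trend, was run on log2(value + 0.5) of the 24310 genes whose mean reached 1, in a single model of the 3 groups without covariates, two-sided with Benjamini-Hochberg adjustment. It was tested on simulated data with 200 of 24310 genes changed, all drawn from genes with a mean of at least 50. For irradiated minus sham it recovered 54.5% of log2 changes of 1 and 85.0% of 2, and for Die minus Live 39.0% and 82.0%. The simulated noise was independent between genes, and these shares are averages over genes of differing spread. Recovery for the globins themselves was not tested. Ratios and correlations were compared by permutation over animals (exact where a group had fewer than 10, otherwise 100000 draws). For the ratios, irradiated pools all 19 mice. These steps ran in Python 3.11.15 (scipy 1.17.1, pandas 2.3.3, numpy 2.4.6), with plots by matplotlib 3.10.9.

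The members and the 13 lists (107 of 110 symbols found) were chosen with earlier results of these data known. Named genes were the 4 members, list genes past the threshold or among the 4 with the smallest p for irradiated minus sham, and the 8 genes most like the members. Hbq1a, Hbq1b, Hbb-y, Hba-x, Hbb-bh1, Hbb-bh2, Alas2 and Slc4a1 are given besides. Each library is a separate animal by its title. Alternatives covered the pseudocount, filters, scaling, weights, covariates, a replicate block, a stricter threshold and left-out libraries. The fit without Live replicates 18 and 19 and the one without a trend were added after the data were seen. A few listed genes are not reported here.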

Additional observations from a re-analysis of the deposited data

Results flagged for a closer look

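4 values stood apart from the other animals of their group, among 27 groups examined (9 quantities in 3 groups). For independent, normally distributed values chance flags about 1 in 20 groups. The quantities examined share genes and libraries, so that rate need not hold here. In sham replicate 10, Hba-a1 had 941650 normalised counts, with the nearest sham library at 520097, and Hba-a2 had 1079962, with the nearest at 591622. Both were the highest of the 10 sham values. In sham replicate 1, one of the 3 sparse libraries, the ratio of Hba-a1 to Hbb-bs was 0.381, with the nearest sham library at 0.957. In Live replicate 17 the ratio of Hbb-bs to Alas2 was 1.16, with the nearest Live library at 0.636.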

How the results depend on the processing

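Of 252 estimates for the 4 adult globins under other settings, 0 passed the threshold and 12 changed sign. The stricter threshold and the fit without a trend leave every log2 change as it was, so their estimates could not change sign. For irradiated minus sham, Hba-a2 came to -0.0018 with equal totals, -0.0824 with quantile normalization and -0.0873 with reads as a covariate. For Die minus Live, Hbb-bs came to 0.0609 with equal totals. For Die minus sham, Hba-a1 came to 0.11 with array weights, 0.25 with the 7S covariate and 0.72 with the cell marker covariates, Hba-a2 to 0.14 and 0.58 with the last 2 of these, and Hbb-bt to -0.0454 with reads as a covariate. With the replicate block (10, 6 and 4 shared numbers) Hbb-bs came to -0.0680 and Hbb-bt to -0.16 for Die minus sham, where Hba-a1 moved from -0.04 to -0.48 (SE 2.04) and Hba-a2 from -0.22 to -0.78 (SE 2.17). Same-numbered sham and irradiated mice are not pairs by any label, and the deviations from their group means had r from -0.19 to 0.04, with 0 of 10 sham libraries correlating best with their own number. No block could be fitted for Die minus Live. The cause of these moves was not tested. With 1 library left out at a time, 14 of 464 estimates changed sign. Leaving out a library of a group outside a comparison cannot move its estimate, so some of the 464 could not change. The sign changed in Hba-a2 for irradiated minus sham (-0.0442 to 0.37) and, for Die minus sham, in Hba-a1 (-0.23 to 0.16), Hba-a2 (-0.45 to 0.0019) and Hbb-bt (-0.0447 to 0.20). Genes called for irradiated minus sham went from 4 to 10 with a minimum mean of 50, to 62 without the 3 sparse libraries and to 0 with the replicate block, and for Live minus sham from 10 to 40, 115 and 0. The Hbb-bt to Hbb-bs ratio for Live minus sham came to -0.0149 without the 3 sparse libraries. Residual globin after depletion and the split of reads between copies limit what these levels say of blood.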
